A study of Mus musculus with 23 samples.

Results

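The small nucleolar, Cajal body and structural RNA genes were followed in mouse liver RNA sequencing. Members were the genes of the count table whose symbol begins with Snora, Snord or Scarna and a digit, together with Rn7sk, Rpph1, Rmrp, Terc and Vaultrc5, provided they held 10 or more counts summed over the 23 libraries. Of the 54838 genes counted, 156 have such a symbol and 46 of those were members. There were 4 structural RNAs, 5 small Cajal body RNAs (scaRNAs), 13 box H/ACA snoRNAs and 24 box C/D snoRNAs. Another 86 genes had no count in any library and 24 had 1 to 9 counts. The values that chose the members were therefore their summed counts, and 259779 of the 262331 member counts came from the 4 FSTL3 libraries. Only 25 of the 46 members also reached 10 counts over the 19 other libraries, so the height of the members in FSTL3 libraries is described here without support from a test. The counting intervals given for their ratios cover counting error only and are part of that description.

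SnoRNAs are short RNAs of the nucleolus that steer enzymes to chosen bases of ribosomal RNA. Box C/D snoRNAs guide methylation of the ribose by fibrillarin, and box H/ACA snoRNAs guide the change of uridine to pseudouridine by dyskerin, whereas scaRNAs do the same for spliceosomal RNAs in Cajal bodies. In mammals most of them are cut out of introns of host genes and end without a poly(A) tail. The structural RNAs have other tasks: 7SK RNA (Rn7sk) holds the elongation factor P-TEFb inactive, RNase P RNA (Rpph1) trims transfer RNA precursors, telomerase RNA (Terc) carries the template for telomere repeats, and the vault RNA (Vaultrc5) belongs to the vault particle.

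All libraries came from liver of C57BL/6J mice, an inbred strain. In batch 2, 4 libraries each were made after injection of FSTL3 (follistatin-like 3), EPDR1 (ependymin-related 1) or FCN2 (ficolin-2), with 4 vehicle libraries of that batch, and in batch 1 there were 3 libraries after LBP (lipopolysaccharide-binding protein; replicates 2, 3 and 4) and 4 vehicle libraries. Recombinant protein was injected 3 times at intervals of 1 day, at 1 µg per g of body weight, to ask what each candidate hormone does in a target tissue. The labels give no age or sex and do not say whether libraries of a group came from separate animals, so p-values reflect only how far these samples spread, and part of that spread may be technical.

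Total counts ran from 773499 to 21892416 per library with a median of 3712802, and from 9298871 to 10930800 in FSTL3 libraries. The FSTL3 libraries stood apart from all others in RNA composition. Mitochondrial ribosomal RNA took 5.05% to 10.1% of their counts, against 0.809% to 1.54% in the batch 2 vehicle. Of its genes, mt-Rnr2 was called higher (log2 fold change 2.98, edgeR adjusted p under 0.05) and mt-Rnr1 was not called (0.44). Mitochondrial protein-coding RNA went the other way, with 1.97% to 2.13% of counts in FSTL3 libraries, against 7.36% to 11.8% in that vehicle. Nuclear retained long RNAs such as Malat1 summed to 6802 to 11308 CPM in FSTL3 libraries, against 1039 to 2007 CPM in that vehicle (CPM is counts scaled to the TMM-adjusted library size). LBP replicate 2 also stood apart, since hepatocyte marker genes took 1.81% of its counts, against 10.7% and 9.70% in LBP replicates 3 and 4. An effect of the injected protein and of any difference in how the FSTL3 libraries were prepared cannot be told apart.

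The sequences of 11 members that the results turn on are shown to let their sizes and boxes be compared, with only bases 1 to 300 of Rn7sk (331 bases) and Terc (423 bases). They were read from the GENCODE M21 transcripts on build GRCm38. Rn7sk (chr9:78175303-78175633, minus strand), Snord17 (chr2:144265979-144266216, minus strand), Snora23 (chr7:110046364-110046547, plus strand), Scarna13 (chr12:105031075-105031349, minus strand), Terc (chr3:96414437-96414859, minus strand) and Snora78 (chr17:24719676-24719803, minus strand) were high in FSTL3 libraries. Snora20 (chr17:12922790-12922917, plus strand) was read in every library. Snord118 (chr11:69073427-69073561, plus strand) and Snord104 (chr11:106500993-106501062, plus strand) were high in LBP replicate 2. Snord49a (chr11:62603450-62603521, plus strand) and Snord82 (chr1:86356261-86356330, minus strand) were low in FSTL3 libraries. Capitals mark the C box (TGATGA) and D box (CTGA) of C/D snoRNAs. In RNAs of the H/ACA kind they mark the last ACA within the final 12 bases. In Snora23 that ACA overlaps an earlier one, and which of them is the box was not tested. Capitals also mark the GATC motifs of Rn7sk, which in human 7SK belong to the hairpin bound by Hexim proteins, and the template of Terc (CTAACCCT).
Rn7sk: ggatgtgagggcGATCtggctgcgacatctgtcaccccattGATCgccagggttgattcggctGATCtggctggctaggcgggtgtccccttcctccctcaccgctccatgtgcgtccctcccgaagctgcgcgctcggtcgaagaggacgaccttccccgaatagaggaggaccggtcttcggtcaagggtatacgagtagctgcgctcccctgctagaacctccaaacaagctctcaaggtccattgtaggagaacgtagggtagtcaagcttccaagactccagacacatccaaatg
Snord17: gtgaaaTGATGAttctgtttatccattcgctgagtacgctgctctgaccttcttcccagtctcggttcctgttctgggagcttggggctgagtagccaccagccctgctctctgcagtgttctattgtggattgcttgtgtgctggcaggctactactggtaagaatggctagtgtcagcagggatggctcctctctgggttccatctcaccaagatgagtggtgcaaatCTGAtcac
Snora23: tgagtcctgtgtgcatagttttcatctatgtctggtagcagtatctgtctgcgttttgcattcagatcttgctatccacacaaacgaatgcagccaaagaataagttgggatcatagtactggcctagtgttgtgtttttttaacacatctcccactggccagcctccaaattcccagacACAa
Scarna13: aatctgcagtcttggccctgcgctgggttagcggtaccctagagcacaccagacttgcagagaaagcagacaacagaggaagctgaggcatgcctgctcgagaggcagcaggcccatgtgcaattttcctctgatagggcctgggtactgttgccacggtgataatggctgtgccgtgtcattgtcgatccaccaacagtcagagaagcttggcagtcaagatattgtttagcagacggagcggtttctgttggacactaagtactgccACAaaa
Terc: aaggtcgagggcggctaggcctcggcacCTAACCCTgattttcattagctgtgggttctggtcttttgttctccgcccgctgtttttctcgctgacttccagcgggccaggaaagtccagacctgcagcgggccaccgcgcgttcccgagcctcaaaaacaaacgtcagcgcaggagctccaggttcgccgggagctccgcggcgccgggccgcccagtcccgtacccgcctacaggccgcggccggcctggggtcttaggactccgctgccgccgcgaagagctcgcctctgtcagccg
Snora78: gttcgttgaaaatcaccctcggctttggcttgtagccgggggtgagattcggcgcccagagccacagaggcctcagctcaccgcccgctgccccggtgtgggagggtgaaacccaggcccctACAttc
Snora20: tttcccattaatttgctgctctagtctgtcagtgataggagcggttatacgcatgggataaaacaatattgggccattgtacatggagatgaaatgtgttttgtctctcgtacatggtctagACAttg
Snord118: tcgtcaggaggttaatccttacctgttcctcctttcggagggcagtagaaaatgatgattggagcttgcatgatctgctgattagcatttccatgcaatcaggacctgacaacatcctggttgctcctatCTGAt
Snord104: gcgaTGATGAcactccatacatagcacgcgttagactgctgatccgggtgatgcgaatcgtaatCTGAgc
Snord49a: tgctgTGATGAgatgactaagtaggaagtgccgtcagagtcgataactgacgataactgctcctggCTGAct
Snord82: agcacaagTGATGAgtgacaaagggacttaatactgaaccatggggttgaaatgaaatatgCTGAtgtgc

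The boxes were found in most members. TGATGA lay within the first 30 bases of 17 of the 24 box C/D members (70.8%), of 73.3% of the other box C/D genes of the table and of 2.93% of all other M21 transcripts of 60 to 450 bases. CTGA lay within the last 20 bases of 95.8% of the box C/D members, against 98.7% and 11.9% in the same sets. ACA lay within the last 12 bases of all 13 box H/ACA members, of 93.1% of the other box H/ACA genes and of 19.1% of the other transcripts. Only the sense strand was searched, the searches allow no mismatch, and Snord118 showed the D box alone in these windows. Members were 64 to 423 bases long with a median of 119. They lay in introns of a gene on the same strand in 31 cases and outside any gene in 9. Another 5 overlapped an exon of a longer gene and 1 (Snora57) lay in an intron of a gene on the opposite strand. Reads were counted without strand, and reads that touched exons of 2 genes were not counted, which touches the 5 exonic members (Rpph1, Scarna13, Snora74a, Snora2b and Snord66) directly. Of the 110 genes with a matching symbol that were no members, 74 overlapped an exon of another gene.

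The 4 structural RNAs together reached 5531 ± 221 CPM in FSTL3 libraries, 7.01 ± 1.95 in EPDR1, 5.24 ± 1.78 in FCN2 and 6.92 ± 1.14 in the vehicle of batch 2 (mean ± SD, n = 4 each). They reached 12.3 ± 12.9 CPM in the 3 LBP libraries and 3.94 ± 2.301 in the 4 vehicle libraries of batch 1. Rn7sk made up nearly all of this, and without it the class still summed to 65.9 ± 5.17 CPM in FSTL3 libraries and 0.169 ± 0.234 CPM in the vehicle of batch 2. In bulk liver, a change in the share of a cell type and a change in RNA per cell cannot be told apart, for this and every later result.

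Rn7sk had 5612, 5464, 5630 and 5155 CPM in FSTL3 replicates 1 to 4. In the same order it had 5.38, 5.42, 9.34 and 7.56 CPM after EPDR1, 3.58, 7.57, 5.66 and 3.75 after FCN2, and 6.94, 5.03, 7.44 and 7.60 in the vehicle of batch 2. It had 16.9, 3.24 and 6.43 CPM after LBP and 3.17, 3.41, 1.83 and 6.68 in the vehicle of batch 1. Those of FSTL3 formed a narrow band far above every other library, and outside them LBP replicate 2 was the highest. The counts behind this were 61330, 63145, 62559 and 62089 in FSTL3 libraries, against 28, 111, 18 and 22 in the vehicle of batch 2. The fitted log2 fold change was 9.69 ± 0.49 (SE), and it stayed between 9.54 and 9.75 when any single library was left out. By counts per kilobase, Rn7sk ranked 3rd among all genes in every FSTL3 library and between 1046th and 4266th in the others. 7SK has many pseudogene copies, and reads that map to more than 1 place were not counted, so these levels leave such reads out.

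Rpph1, the catalytic RNA of RNase P, had 49.5, 60.5, 41.2 and 44.8 CPM in FSTL3 libraries. It had 1 read in each of EPDR1 replicate 4, FCN2 replicate 1 and vehicle replicate 2 of batch 2, and none in the LBP libraries or the vehicle of batch 1. Vaultrc5 had 15.4, 10.6, 17.6 and 15.8 CPM in FSTL3 libraries, 10.2 CPM in LBP replicate 2, at most 0.234 CPM in FCN2 and vehicle libraries and no read after EPDR1. So the FSTL3 libraries did not overlap any other library for either RNA, with LBP replicate 2 just below the lowest of them for Vaultrc5. Terc was low everywhere, with 1.56, 1.99, 2.52 and 2.32 CPM in FSTL3 libraries, against 0.496, 0, 0 and 0 in the vehicle of batch 2. It was also read in vehicle replicates 3 and 4 of batch 1 (0.108 and 0.581 CPM), and was at 0 in all EPDR1, FCN2 and LBP libraries. The ratio of its pooled counts, FSTL3 over vehicle of batch 2, was 33.0 (95% counting interval 8.90 to 277), and 9.83 (2.65 to 82.3) without vehicle replicate 2, the deepest library of that group. Rmrp, the RNA of RNase MRP, is listed under 2 identifiers and both were at 0 in all 23 libraries.

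**Figure D1:**
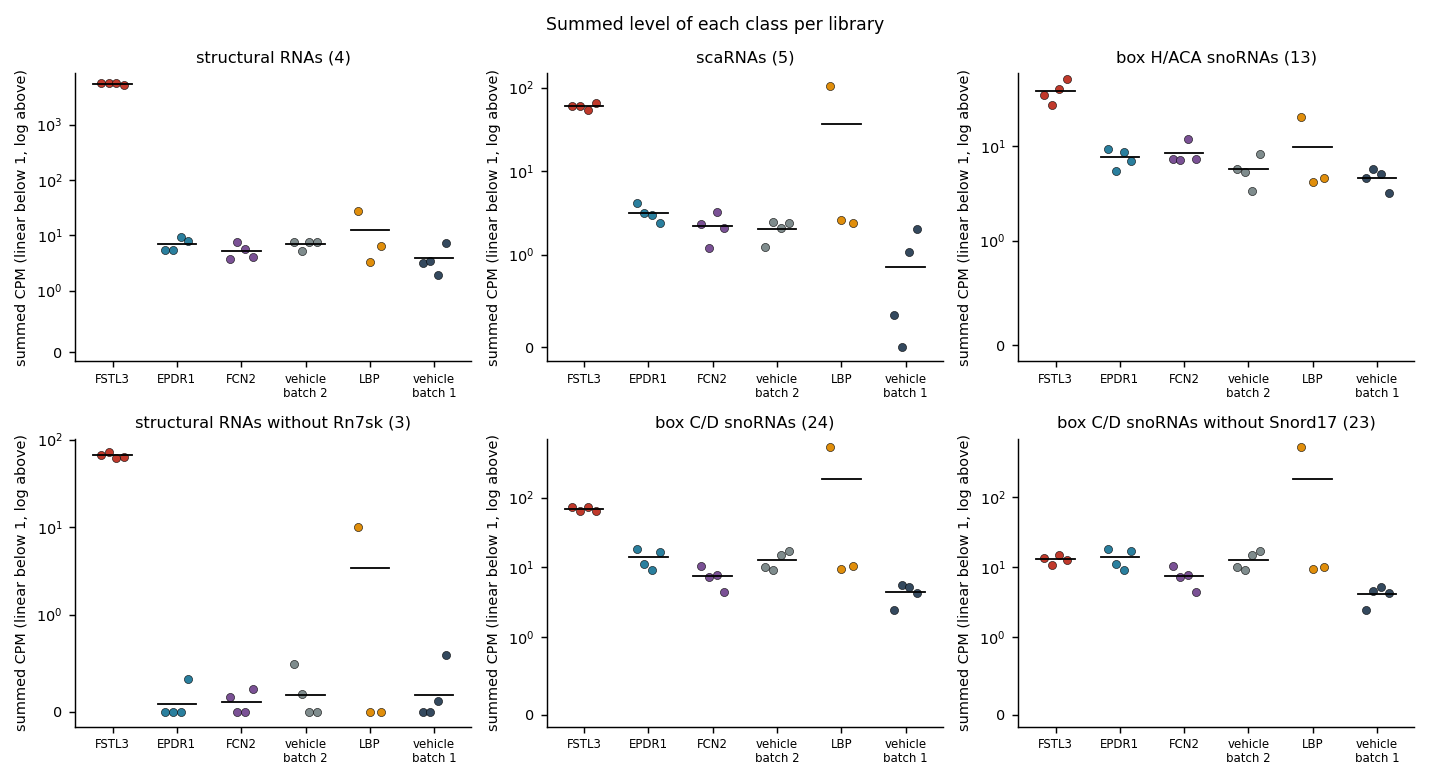
Summed CPM of each class of small RNA in every library (y axis, linear below 1 and logarithmic above), with groups in the order FSTL3, EPDR1, FCN2, vehicle of batch 2, LBP, vehicle of batch 1; points are libraries and the line is the group mean. The structural RNAs stand highest in FSTL3 libraries, the scaRNAs there lie above all libraries except LBP replicate 2 (104 CPM), the panel of C/D snoRNAs without Snord17 shows 10.6 to 15.1 CPM after FSTL3 and 9.11 to 16.9 CPM in the vehicle of batch 2, and LBP replicate 2 lies far above its group in the scaRNA and C/D panels.

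The 5 scaRNAs summed to 60.2 ± 4.69 CPM in FSTL3 libraries, 3.19 ± 0.724 in EPDR1, 2.23 ± 0.854 in FCN2 and 2.04 ± 0.563 in the vehicle of batch 2 (SD, n = 4 each). Their sum was 104 CPM in LBP replicate 2, 2.59 and 2.41 in LBP replicates 3 and 4, and 0.866 ± 0.898 in the 4 vehicle libraries of batch 1. Within the class, 3 RNAs carried the FSTL3 level and 2 did not.

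Scarna6, whose human counterpart carries both C/D and H/ACA boxes, had 23.3, 22.1, 22.4 and 24.2 CPM in FSTL3 libraries. Outside them it had 3.39 CPM in LBP replicate 2 and at most 0.413 CPM in any other library. Scarna13, an H/ACA scaRNA, had 15.6, 15.5, 13.6 and 16.3 CPM in FSTL3 libraries and a lone read in LBP replicate 3 elsewhere. Both were thus nearly confined to FSTL3 libraries in these counts, and replicates of that group differed little. Scarna2, which guides methylation of U2 in human cells, had 21.1, 21.4, 17.6 and 24.6 CPM after FSTL3. It had 0.733, 1.59, 0.603 and 1.38 CPM after EPDR1, 0.777, 0.797, 0.893 and 0.703 after FCN2, and 0.744, 1.09, 0.413 and 1.38 in the vehicle of batch 2. It was read in all of these libraries, and the FSTL3 libraries lay above all of them, with a ratio of pooled counts to vehicle of 20.9 (95% counting interval 14.7 to 30.7). LBP replicate 2 was higher still at 79.0 CPM.

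Scarna17 had 0.549, 0.433, 0.72 and 0.747 CPM in FSTL3 libraries, 2.93, 1.28, 2.11 and 0.688 after EPDR1, 1.24, 0.399, 2.38 and 1.17 after FCN2, and 0.496, 1.22, 1.24 and 0.346 in the vehicle of batch 2. Its FSTL3 values lay inside the vehicle range. The ratio of pooled counts, FSTL3 over vehicle, was 0.584 (95% counting interval 0.340 to 0.996), and 0.955 (0.388 to 2.82) without vehicle replicate 2, which held most of the vehicle reads. Scarna9 was near the detection limit, with 11 counts in FSTL3 libraries and 14 in the 19 others.

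The 13 box H/ACA snoRNAs summed to 38.5 ± 10.1 CPM after FSTL3, 7.58 ± 1.77 after EPDR1, 8.41 ± 2.33 after FCN2 and 5.65 ± 2.05 in the vehicle of batch 2 (SD, n = 4 each). They summed to 9.69 ± 9.20 CPM after LBP (n = 3) and 4.63 ± 1.06 in the vehicle of batch 1 (n = 4). Without Snora23 the sums were 17.6 ± 6.12 CPM after FSTL3 and 5.63 ± 2.06 in the vehicle of batch 2. Among members that reached 10 counts outside FSTL3, the sums were close, at 7.12 ± 1.61 and 5.54 ± 2.06 CPM in the same groups.

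Snora23, a guide for ribosomal pseudouridine in human cells that lies in an intron of the importin gene Ipo7, had 20.04, 13.8, 24.8 and 24.7 CPM in FSTL3 libraries. In the vehicle of batch 2 it had reads only in replicate 2 (0.0906 CPM), after EPDR1 and LBP none, after FCN2 0.311 and 0.298 CPM in replicates 1 and 3, and in the vehicle of batch 1 it had 0.352, 1.14, 0.108 and 0.29 CPM. Snora78, from the noncoding host Snhg9, had 4.76, 4.499, 6.57 and 11.5 CPM in FSTL3 libraries and no read in the vehicle of batch 2. FSTL3 replicate 4 was the highest for Snora78 and for Snora74a, which had 1.74, 1.298, 2.43 and 4.48 CPM in FSTL3 libraries and 1 read each in FCN2 replicate 4 and vehicle replicate 1 of batch 2. For all 3 RNAs the FSTL3 libraries lay above every other library.

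Snora20, from an intron of the chaperonin gene Tcp1 and also a pseudouridine guide in human cells, was the H/ACA member read best outside FSTL3. It had 2.84, 3.11, 2.25 and 4.73 CPM after FSTL3, 5.38, 4.15, 6.03 and 5.16 after EPDR1, 5.60, 6.38, 8.64 and 6.56 after FCN2, and 3.72, 3.17, 2.07 and 5.87 in the vehicle of batch 2. FSTL3 and vehicle libraries overlapped fully. The log2 fold change, FSTL3 over vehicle, was -0.17 ± 0.27 (SE; edgeR quasi-likelihood adjusted p = 0.820; 0.047 with total-count scaling), and the ratio of pooled counts was 0.958 (95% counting interval 0.743 to 1.24). Snora31, from the gene of the translationally controlled tumour protein Tpt1, had 0.824, 0.519, 0.99 and 1.25 CPM after FSTL3, against 0.248, 0.589, 0.827 and 1.04 in the vehicle of batch 2. These groups overlapped too, and the ratio of pooled counts was 1.49 (95% counting interval 0.843 to 2.71). Snora57 had ratios of 5.28 (2.25 to 15.1) and Snora21 of 7.57 (2.76 to 29.01) on the same measure, both from few reads, and both were higher in LBP replicate 2 (3.39 and 6.77 CPM) than in any FSTL3 library. Without vehicle replicate 2 the ratio of Snora21 was 4.504 (1.18 to 38.4). Snora62, in the gene of the ribosomal protein Rpsa, stood at 0.516 (0.223 to 1.16), and at 2.46 (0.364 to 105) without that library, so no direction is given for it.

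**Figure D2:**
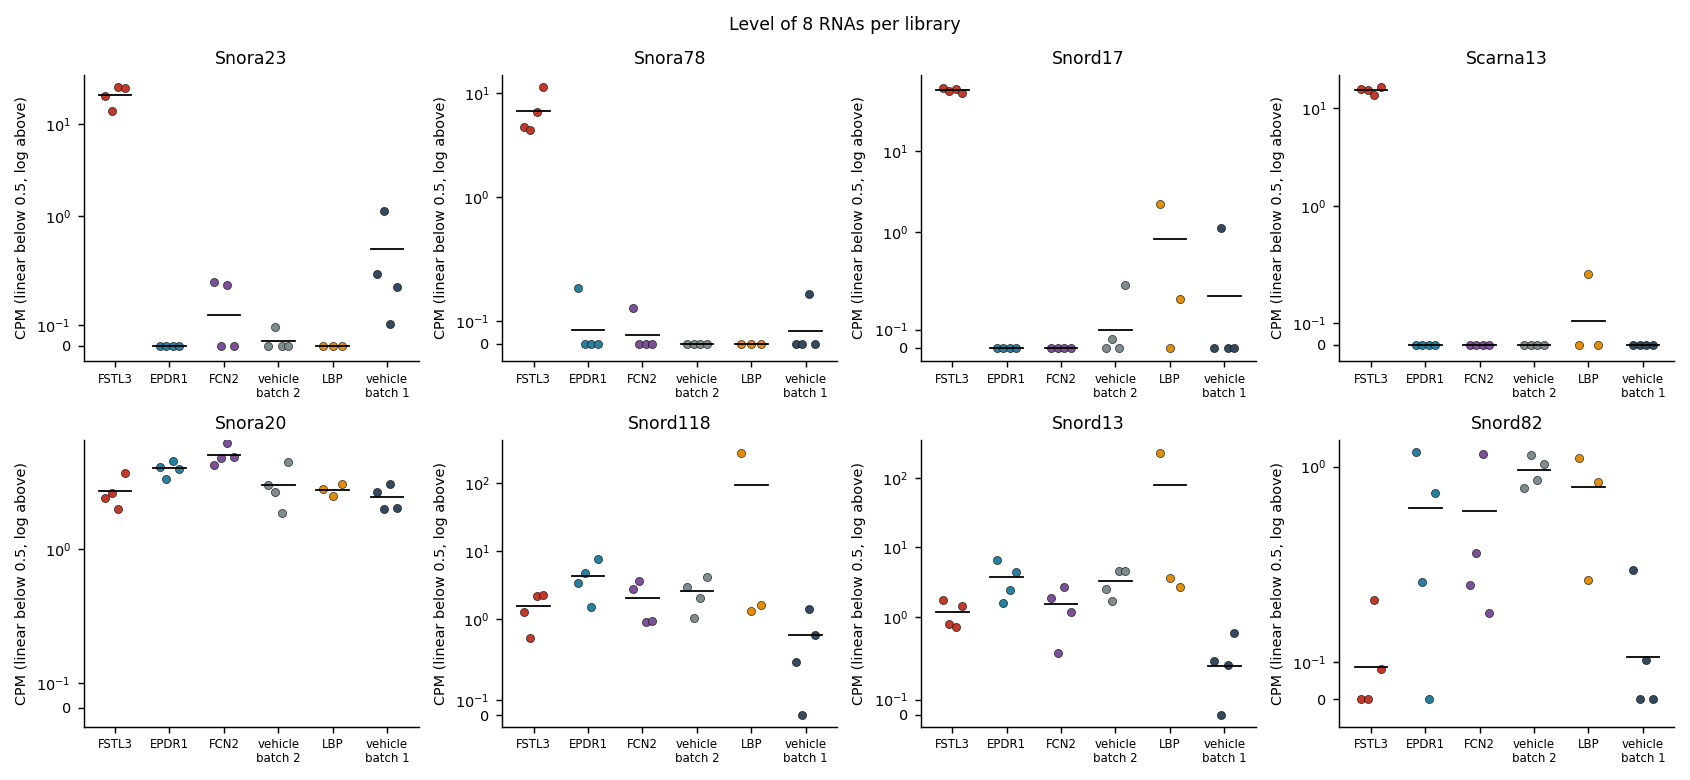
CPM of 8 small RNAs in every library (y axis, linear below 0.5 and logarithmic above), with groups in the order FSTL3, EPDR1, FCN2, vehicle of batch 2, LBP, vehicle of batch 1; points are libraries and the line is the group mean. Snora23, Snora78, Snord17 and Scarna13 lie above all other libraries after FSTL3, Snora20 overlaps its vehicle, Snord82 lies below its vehicle, and Snord118 and Snord13 reach 275 and 228 CPM in LBP replicate 2.

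The 24 box C/D snoRNAs summed to 68.7 ± 4.95 CPM after FSTL3, 13.9 ± 4.53 after EPDR1, 7.48 ± 2.51 after FCN2 and 12.9 ± 3.86 in the vehicle of batch 2 (SD, n = 4 each). Their sum was 534 CPM in LBP replicate 2, 9.40 and 10.4 in LBP replicates 3 and 4, and 4.42 ± 1.41 in the vehicle of batch 1. The FSTL3 level rested on Snord17. Without it the class had 13.5, 10.6, 15.1 and 12.8 CPM in FSTL3 libraries, against 10.2, 9.11, 14.9 and 16.9 CPM in the vehicle of batch 2, and the groups overlapped.

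Snord17, the longest box C/D member at 238 bases, lies in an intron of the sorting nexin gene Snx5. It had 59.8, 53.7, 57.5 and 51.6 CPM in FSTL3 libraries, none in EPDR1 and FCN2 libraries, and 0, 0.0453, 0 and 0.346 CPM in the vehicle of batch 2. LBP replicate 2 had 2.26 CPM, and vehicle replicate 2 of batch 1 had 1.14 CPM from its lone read. Snord15a, a methylation guide from the gene of the ribosomal protein Rps3, was the next C/D member to lie above all 19 other libraries, at 3.57, 2.596, 3.69 and 2.24 CPM in FSTL3 libraries, against 0, 0.0453, 0 and 0.346 in the vehicle of batch 2. The ratio of its pooled counts was 47.1 (95% counting interval 12.8 to 393), with 28.05 without vehicle replicate 2 and 85.6 without vehicle replicate 4, since only these held reads.

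Snord118 (U8), which frog oocytes need to process the RNA of the large ribosomal subunit, had 1.28, 0.519, 2.16 and 2.24 CPM after FSTL3, 3.42, 4.78, 1.51 and 7.56 after EPDR1, 2.80, 3.59, 0.893 and 0.937 after FCN2, and 2.98, 1.04, 2.07 and 4.15 in the vehicle of batch 2. Snord13 (U13), which guides acetylation of small subunit ribosomal RNA in human cells, had 1.74, 0.779, 0.72 and 1.41 CPM after FSTL3, 6.60, 1.59, 2.41 and 4.47 after EPDR1, 1.87, 0.399, 2.68 and 1.17 after FCN2, and 2.48, 1.68, 4.55 and 4.49 in the vehicle of batch 2. Both overlapped between FSTL3 and vehicle, although FSTL3 replicates 2, 3 and 4 lay below all vehicle libraries for Snord13. Over vehicle, the log2 fold change after FSTL3 was -0.49 ± 1.18 for Snord118 (edgeR adjusted p = 0.778) and -1.295 ± 1.01 for Snord13 (edgeR adjusted p = 0.332). In a fit without LBP replicate 2, where 25.4% of all genes were called lower, Snord13 fell by 1.28 ± 0.43 on the log2 scale (edgeR adjusted p = 0.0132) and Snord118 was not called (-0.47, adjusted p = 0.461).

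Snord104, a short methylation guide, had 2.01, 1.90, 2.34 and 1.91 CPM after FSTL3, against 0.992, 2.36, 1.65 and 3.11 in the vehicle of batch 2. The vehicle libraries lay on both sides of the FSTL3 libraries, and the log2 fold change was -0.02 ± 0.56 (edgeR adjusted p = 0.981) and turned to 0.19 with total-count scaling. Snord49a, in an intron of the noncoding gene 2410006H16Rik, had 0.458, 0.519, 0.36 and 0.083 CPM after FSTL3, against 0.992, 0.544, 1.65 and 1.38 in the vehicle of batch 2. Snord82, in an intron of the nucleolin gene Ncl, had 0, 0, 0.27 and 0.083 CPM after FSTL3, against 0.744, 1.18, 0.827 and 1.04 in the vehicle of batch 2. These 2 methylation guides were the members for which every FSTL3 library lay below every vehicle library of batch 2, as did 23.8% of all genes tested. The ratios of their pooled counts were 0.459 (95% counting interval 0.228 to 0.900) and 0.0810 (0.0209 to 0.227), the second from 4 and 34 reads. They were 0.273 (0.121 to 0.632) for Snord49a without vehicle replicate 2 and 0.0268 for Snord82 without FSTL3 replicate 3.

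Members of the Rpl13a gene, whose snoRNAs have been linked to lipotoxic stress in hamster and mouse cells, were at the edge of detection. Snord32a had 1, 8, 3 and 4 counts in FSTL3 libraries, against 0, 2, 2 and 1 in the vehicle of batch 2. Snord34 had 2, 7, 3 and 2 counts in FSTL3 libraries and 1 count in all other libraries together, and Snord35a had 4, 3, 5 and 0 counts in FSTL3 libraries. Snord33 of the same host gene was at 0 in all libraries. So were Snord60, Snora73a and Snora73b, which have been tied to cholesterol handling in hamster cells. Just inside the limit of 10 counts were Snord87 (10), Snord8 (12) and Snord71 (14), and just outside were Snord85 (9), Snord73a (8) and Scarna3a (7).

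Per base of RNA, the order within FSTL3 libraries was led by Rn7sk at 16511 ± 665 CPM per kilobase (SD, n = 4), followed by Snord17 at 234 ± 15.5 and Rpph1 at 154 ± 26.2. Snora23 (113 ± 28.3), Vaultrc5 (104 ± 21.1) and Scarna6 (86.8 ± 3.57) came next, and neighbours among Rpph1, Snora23 and Vaultrc5 overlapped within their SD. Scarna13 (55.4 ± 4.17), Snora78 (53.3 ± 25.2) and Scarna2 (51.2 ± 6.84) formed a further group without clear order, and Terc had 4.96 ± 0.999. Of the 12 members with 100 or more counts in FSTL3 libraries, the coefficient of variation ran from 4.03% (Rn7sk) to 56.7% (Snora74a), with a median of 18.7%. The number of members with a read was 43 to 45 in FSTL3 libraries, 19 to 26 after EPDR1, 15 to 26 after FCN2 and 18 to 36 in the vehicle of batch 2. At the depth of the shallowest library, 22.2 to 23.3 members would be read in FSTL3 libraries, 8.99 to 12.5 after EPDR1, 6.18 to 9.22 after FCN2 and 9.36 to 11.6 in the vehicle of batch 2. In batch 1 these were 9.03 to 15.8 after LBP and 5.77 to 8.0 in vehicle. Among the 25 members with 10 or more counts outside FSTL3 the groups of batch 2 lay closer, at 11.1 to 12.7 in FSTL3 libraries, 8.76 to 11.2 after EPDR1, 5.87 to 8.59 after FCN2 and 8.25 to 10.8 in vehicle.

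In all, 11 of the 46 members lay higher in every FSTL3 library than in any of the 19 others, and 20 lay above every vehicle library of batch 2, as did 29.9% of all genes tested. Because the members were chosen by counts that FSTL3 libraries supply, nothing is read from that count. Of the 25 members with 10 or more counts outside FSTL3, 3 lay above all 19 others (Rn7sk, Vaultrc5 and Snord15a) and 6 above the vehicle of batch 2. The fit across all genes could test 14 members, of which 10 were called after FSTL3 against the vehicle of batch 2, all of them higher, with 39.2% of all genes called in either direction (edgeR adjusted p under 0.05). Only Rn7sk, Snora20, Snord118 and Snord13 also pass the filter on low counts without the FSTL3 libraries, so this count too is a description.

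The members differed by length. The bins of length used here were chosen after the values had been seen. The 20 members under 100 bases summed to 7.68 ± 1.01 CPM after FSTL3 and 7.72 ± 1.86 in the vehicle of batch 2 (SD, n = 4 each). The 13 members of 100 to just under 140 bases summed to 17.02 ± 5.46 CPM after FSTL3 and 11.1 ± 4.11 in vehicle. The 12 members of 140 bases or more other than Rn7sk summed to 209 ± 4.93 CPM after FSTL3 and 1.89 ± 0.729 in vehicle. The summed level of the short members was thus close between the groups and that of the long members was not.

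Single short members were spread on both sides of 1. Under 100 bases, 10 of 20 ratios of pooled counts, FSTL3 over vehicle, lay over 2 (against a floor of 3 counts where vehicle had none) and 7 lay under 1. They ran from 0.0810 (Snord82) to 6.88 (Snord83b, 95% counting interval 1.67 to 60.7), and none passed 10. Without vehicle replicate 1, 2 of them passed 10, and without vehicle replicate 4, 1 did. The ratio of Snord83b was 2.05 without vehicle replicate 2. Against all 19 other libraries pooled, 2 of these 20 passed 10 (Snord34 and Snord87, both set by the floor against vehicle). From 100 to just under 140 bases only Snora78 did, at least 72.3-fold higher after FSTL3 against a floor of 3 counts over the vehicle group, and at least 21.5-fold without vehicle replicate 2. From 140 bases, 11 of 13 ratios passed 10, with Snora62 lowest (0.516) and Rpph1 highest (1540, 95% counting interval 276 to 60857, from 1 vehicle read in replicate 2, without which Rpph1 was at least 153-fold higher). The count of long members past 10 was 10 to 11 with any single library left out. Among members with 10 or more counts outside FSTL3, 4 of 6 of the long members passed 10 and none of the shorter ones did. Across the 46 members, Spearman's rho between length and this ratio was 0.65, and it was 0.37 within the 24 box C/D and 0.38 within the 13 box H/ACA members. With the ratio taken over all 19 other libraries, rho was 0.601 across members, 0.198 within box C/D and 0.243 within box H/ACA. Members share the libraries and several share a host gene, so these rho values are descriptions. The ratios also use the FSTL3 counts that helped to choose the members. Under 10 counts outside FSTL3 were held by 8 of the 20 short, 6 of the 13 middle and 7 of the 13 long members.

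**Figure D3:**
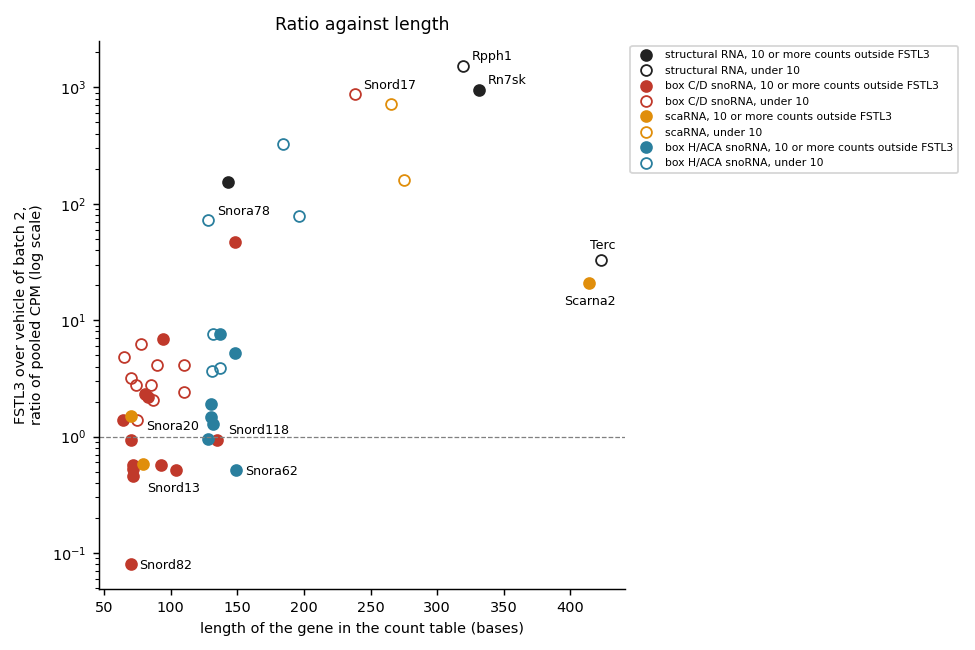
Ratio of pooled CPM, FSTL3 over vehicle of batch 2 (y axis, logarithmic), against the length of each member in bases (x axis); filled points have 10 or more counts outside FSTL3 libraries, open points fewer, and members without a vehicle read are drawn at a floor of 3 counts. No member under 100 bases passes a ratio of 10 on this measure, and 11 of 13 members of 140 bases or more do. The floor sets Snord34 at 3.21 and Snord87 at 2.06. Over all 19 other libraries pooled they reach 26.2 and 16.9, each against 1 read.

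Against the other injected groups of batch 2, which carry the same batch number as FSTL3, the classes stood much as they did against vehicle (the sums are given above). Of the 14 tested members, 10 were called higher and 1 lower after FSTL3 than after EPDR1, where 42.0% of all genes were called in either direction (edgeR adjusted p under 0.05). Only Rn7sk, Snora20, Snord118 and Snord13 pass the filter on low counts without the FSTL3 libraries. The counts of members called higher, here and against FCN2, are therefore descriptions. The lower member was Snora20, with a log2 fold change of -0.67 ± 0.27 (edgeR adjusted p = 0.0466), although the groups overlapped. That call was lost when EPDR1 replicate 1, 3 or 4 or FSTL3 replicate 1, 2 or 3 was left out (edgeR adjusted p = 0.0759 to 0.121). Without LBP replicate 2, Snord118 (-1.44, edgeR adjusted p = 0.0140) and Snord13 (-1.72, edgeR adjusted p = 0.00121) were lower as well, with 26.6% of all genes called lower. Against FCN2, 11 members were called higher and 1 lower after FSTL3, where 44.3% of all genes were called in either direction. Snora20 was again the lower member (-1.05 ± 0.26, edgeR adjusted p = 0.00213), with all FSTL3 libraries below all FCN2 libraries, and it kept its call without any single library of either group (edgeR adjusted p = 0.000540 to 0.0112). Snord104 was among the higher members, with 1.09, 0.399, 0.298 and 0 CPM after FCN2 and the FSTL3 levels given above. All its FSTL3 libraries lay above all FCN2 libraries, but it too entered the fit only through the FSTL3 libraries, so its difference is a description. These comparisons share the FSTL3 libraries with each other, so they are not independent of the comparison with vehicle.

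After EPDR1, no member was called against the vehicle of batch 2 (0 of 14 tested; background 0% of all genes; edgeR adjusted p under 0.05). Only Rn7sk, Snora20, Snord118 and Snord13 pass the filter on low counts without the FSTL3 libraries. Most of the others had few or no reads in both groups, so little is read from their not being called. DESeq2 and limma-voom also called 0, but DESeq2 gave no adjusted p for Snord118 and Snord13. By edgeR, 0 had an unadjusted p under 0.05. The largest classes lay close together, with C/D snoRNAs at 13.9 ± 4.53 CPM after EPDR1 and 12.9 ± 3.86 in vehicle (SD, n = 4 each). Single members varied within the group, for example Snord118 from 1.51 to 7.56 CPM after EPDR1.

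After FCN2, again 0 of 14 tested members were called against the vehicle of batch 2, beside 0.810% of all genes (edgeR adjusted p under 0.05). The limit on members that enter the fit only through the FSTL3 libraries holds here too. There were 2 members with an unadjusted p under 0.05, DESeq2 called 1 and limma-voom 0. DESeq2 gave no adjusted p for Snord118, Snord13, Snord15a and Snora78. Snora20 had 6.79 ± 1.298 CPM after FCN2 and 3.71 ± 1.599 in vehicle, a log2 fold change of 0.88 ± 0.28 (SE, n = 4 each; edgeR adjusted p = 0.108), and DESeq2 called it (0.93, adjusted p = 0.0434). Snord104 had 0.446 ± 0.460 CPM after FCN2 and 2.03 ± 0.912 in vehicle, a log2 fold change of -1.94 ± 0.80 (edgeR adjusted p = 0.216). Leaving out LBP replicate 2 takes the common dispersion of the fit from 0.0774 to 0.0298. Without it, Snora20 rose (0.89 ± 0.28, edgeR adjusted p = 0.0271) and Snord104 fell by 1.94 ± 0.53 on the log2 scale (edgeR adjusted p = 0.0133), beside 18.8% of all genes called in either direction. The 2 calls thus depend on a library of another batch being left out of the fit.

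After LBP, 4 of the 14 tested members were called higher than in the vehicle of batch 1 and 0 lower, beside 6.77% of all genes called higher (edgeR adjusted p under 0.05). They were Snord13 (log2 7.52 ± 1.297, adjusted p = 0.00862), Snord118 (6.54 ± 1.304, adjusted p = 0.0106), Scarna2 (5.70 ± 1.22, adjusted p = 0.0107) and Snord104 (2.63 ± 0.79, adjusted p = 0.0441). All 4 rested on LBP replicate 2. The call of Snord104 was also lost without any single vehicle library of batch 1, with total-count scaling and with no filter. That of Scarna2 was also lost without vehicle replicate 3 of batch 1. Snord118 had 275, 1.297 and 1.61 CPM in LBP replicates 2, 3 and 4, against 0.352, 0, 1.402 and 0.581 in the vehicle of batch 1. Snord13 had 228, 3.57 and 2.68 CPM after LBP, against 0.352, 0, 0.324 and 0.581 in vehicle. Scarna2 had 79.0, 0.648 and 0.803 CPM after LBP, against 0.352, 0, 0.216 and 0.871 in vehicle. LBP replicate 2 was the highest of all 23 libraries for each of the 3, while LBP replicates 3 and 4 lay above all vehicle libraries for Snord13 and overlapped them for Snord118 and Scarna2. Snord104 had 23.7, 1.95 and 1.87 CPM after LBP, against 0.352, 0, 1.19 and 1.45 in vehicle, so both other LBP libraries lay above vehicle by a small margin.

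Without LBP replicate 2, 0 of 15 members tested were called after LBP, beside 0.727% of all genes (edgeR adjusted p under 0.05). Only 1 had an unadjusted p under 0.05. The log2 fold change of Snord13 was then 3.01 ± 0.76 (edgeR adjusted p = 0.0540), that of Snord118 0.69 (0.803), of Scarna2 0.94 (0.662) and of Snord104 0.92 (0.545). With all libraries, DESeq2 called Scarna2 and Snord104 and gave no adjusted p for the other pair, and limma-voom called 0. LBP replicate 2 held 607 member counts, of which Snord118 (244), Snord13 (202) and Scarna2 (70) made up 85.0%. It was the highest of the 23 libraries for 11 members, among them Scarna17 (21.4 CPM), but not for Rn7sk, Rpph1, Snord17 or Scarna13. The 5 RNAs with the most CPM in it (Snord118, Snord13, Scarna2, Snord104 and Scarna17) all lie outside other genes. In this library pancreatic acinar markers took 0.125% of counts, against 0.00245% and 0.0809% in LBP replicates 3 and 4, and albumin took 0.211%, against 8.36% and 7.64%. The part of these marker differences in the small RNA levels was not tested.

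**Figure D4:**
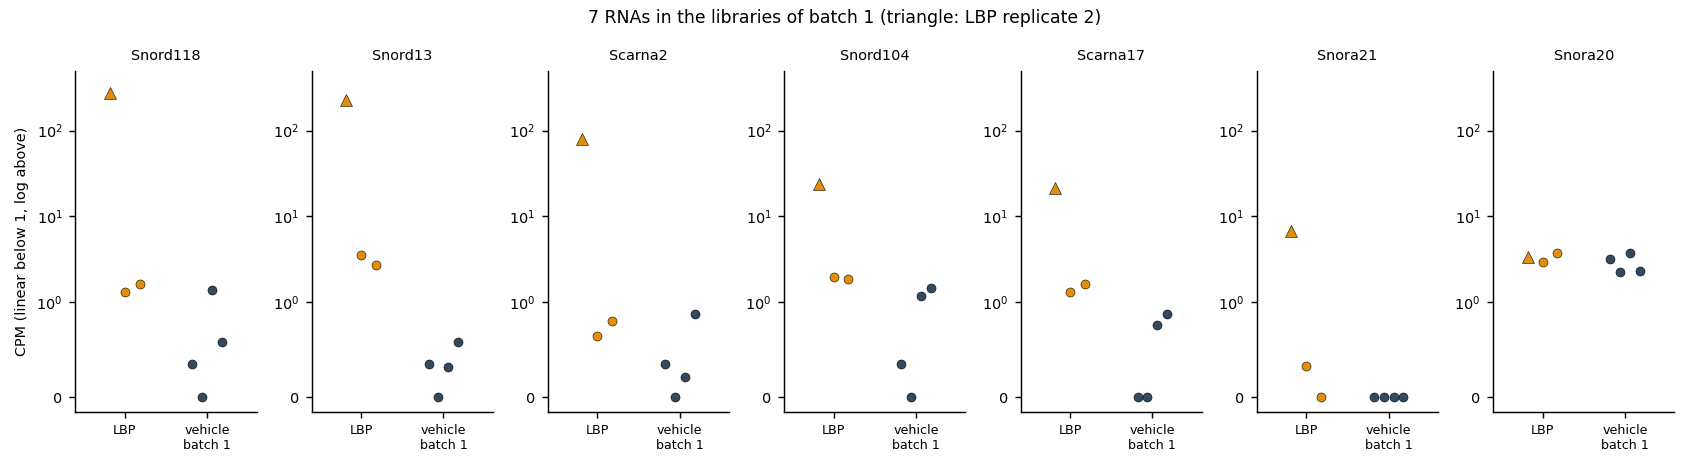
CPM of 7 small RNAs in the libraries of batch 1 (y axis, linear below 1 and logarithmic above), with LBP left of its vehicle; the triangle is LBP replicate 2 and circles are the other libraries. LBP replicate 2 stands at 275 CPM for Snord118, 228 for Snord13 and 79.0 for Scarna2, and at 3.39 CPM for Snora20 it lies among the other libraries.

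Between the vehicle groups, 0 of 14 members were called in batch 2 against batch 1, where 12.2% of all genes were (edgeR adjusted p under 0.05), and 0 had an unadjusted p under 0.05. Most members that enter the fit only through the FSTL3 libraries had few or no reads in both groups, so little is read from this. Snord13 had 2.48, 1.68, 4.55 and 4.49 CPM in the vehicle of batch 2, against 0.352, 0, 0.324 and 0.581 in the vehicle of batch 1, without overlap (log2 2.90 ± 1.51, edgeR adjusted p = 0.225). Without LBP replicate 2, 3 members were higher in batch 2, beside 14.9% of all genes. They were Snord13 (2.88 ± 0.65, edgeR adjusted p = 0.00140), Scarna2 (1.37 ± 0.49, adjusted p = 0.0367) and Rn7sk (0.88 ± 0.32, adjusted p = 0.0416). The vehicle levels of these RNAs thus differed between batches in that fit, and the LBP libraries were compared with the vehicle of their own batch.

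Host genes were followed beside the members after FSTL3. The members were chosen by counts that FSTL3 libraries mostly supply, so the directions of hosts and members are set side by side as a description. Of the 27 genes that hold a member in an intron on the same strand, 26 were tested, and after FSTL3 3 were higher and 8 lower than in the vehicle of batch 2 (edgeR adjusted p under 0.05), beside 39.2% of all genes called in either direction. The 11 of 26 called are a share close to that of all genes, so nothing is read from the count. The median log2 fold change of the 26 was -0.14, against 0.06 over all genes. Scaling by total counts in place of TMM moves the median of all genes by 0.22, more than the distance of the host median from 0. Snx5 and Ipo7 were not called. Snx5, host of Snord17, had 58.5, 48.3, 57.5 and 59.5 CPM after FSTL3, against 64.5, 61.8, 74.0 and 59.8 in vehicle, a log2 fold change of -0.22 ± 0.23 (edgeR adjusted p = 0.483). Ipo7, host of Snora23, had 146, 148, 159 and 154 CPM after FSTL3, against 136, 140, 137 and 94.7 in vehicle (0.26 ± 0.24, edgeR adjusted p = 0.433). Atg16l1, an autophagy gene that holds Scarna6, rose (0.77 ± 0.20, edgeR adjusted p = 0.00410). Beside these host levels, the ratios of pooled counts were 873 for Snord17 (95% counting interval 241 to 7209), 327 for Snora23 (90.3 to 2706) and 723 for Scarna6 (129 to 28566), each against 1 or 2 vehicle reads. Each of these RNAs held under 10 counts outside FSTL3 libraries, so the ratios and intervals are descriptions. The intervals cover counting error only. Without vehicle replicate 2 the ratios were 519 for Snord17, at least 64.9 for Snora23 and 215 for Scarna6.

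The 8 lower hosts were Eef1b2, Ncl, Rpl13a, Rpl23, Rpl3, Rpl37, Rps3 and Snhg6, and other hosts with ribosomal or nucleolar roles (Rpl39, Rpsa, Tsr1 and Wdr43) were not called. Ncl, the nucleolin gene that holds Snord82, had 92.5, 94.2, 100 and 109 CPM after FSTL3, against 259, 280, 287 and 319 in vehicle, and it fell by 1.53 ± 0.18 on the log2 scale (edgeR adjusted p = 8.34e-07). Rpl23, host of Snora21, fell by 1.91 (edgeR adjusted p = 2.98e-08) and Rps3, host of Snord15a, fell by 1.13 (edgeR adjusted p = 2.21e-05), while both snoRNAs had more reads after FSTL3. Tcp1, host of Snora20, was not called (-0.19 ± 0.18, edgeR adjusted p = 0.424). Gas5, a noncoding gene with many snoRNAs in its introns, had 46.3, 44.0, 46.2 and 43.1 CPM after FSTL3, against 106, 132, 155 and 152 in vehicle, and it fell by 1.599 ± 0.17 (edgeR adjusted p = 3.05e-07). Of the 10 tested noncoding snoRNA host genes, 3 were lower (Gas5, Snhg8 and Snhg6) and 0 higher, beside 39.2% of all genes called in either direction.

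The protein partners of the RNAs were read from lists of 7 complexes, of which 59 genes were tested after FSTL3. There were 4 higher and 17 lower than in the vehicle of batch 2 (edgeR adjusted p under 0.05), beside the same 39.2% of all genes called in either direction. The 21 of 59 called are no larger a share than that of all genes, so nothing is read from the count. With LBP replicate 2 left out, 7 were higher and 26 lower, beside 25.4% of all genes called lower. In the H/ACA core, 3 of 4 proteins were lower and 0 higher: Gar1 fell by 2.73 ± 0.35 (edgeR adjusted p = 2.53e-06), Nhp2 by 1.203 and Nop10 by 0.94, and dyskerin (Dkc1) was not called. Gar1 had 0.915, 0.692, 0.45 and 0.996 CPM after FSTL3, against 4.71, 6.07, 6.20 and 3.46 in vehicle, without overlap. In the C/D core, fibrillarin (Fbl) fell by 1.52 (edgeR adjusted p = 0.00146) and Snu13 by 0.88, and Nop56 and Nop58 were not called. Fbl had 1.19, 1.04, 1.08 and 1.08 CPM after FSTL3, against 2.23, 3.54, 4.13 and 2.76 in vehicle. The median log2 fold change was -1.07 in the H/ACA core and -0.85 in the C/D core.

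Other complexes changed less evenly, beside the same 39.2% of all genes called in either direction. In the 7SK particle, Hexim1, the inhibitor that binds P-TEFb on 7SK RNA, had 23.3, 26.2, 24.9 and 26.6 CPM after FSTL3, against 39.7, 49.5, 39.3 and 51.8 in vehicle, and it fell by 0.84 ± 0.18 (edgeR adjusted p = 0.000638). Ccnt2, a cyclin of P-TEFb, rose by 1.04 ± 0.27 (edgeR adjusted p = 0.00429), and the other 4 tested genes of the particle were not called. Of the vault and telomerase proteins, Parp4, Tep1 and Tert were higher (3 of 4) and the main vault protein Mvp was not called. RNase P and MRP subunits had 2 of 10 lower (Pop7 and Rpp30), assembly factors 3 of 16 (Smn1, Znhit6 and Naf1) and the RNA exosome, which trims the ends of snoRNAs, 6 of 15, with 0 higher in each of the 3 lists. The calls of Naf1, Pop7 and Tep1 were each lost when any of 5 or more of the 8 libraries was left out, that of Rpp30 without FSTL3 replicate 1 or vehicle replicate 1, that of Exosc2 without vehicle replicate 2 and that of Snhg6 without vehicle replicate 4.

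**Figure D5:**
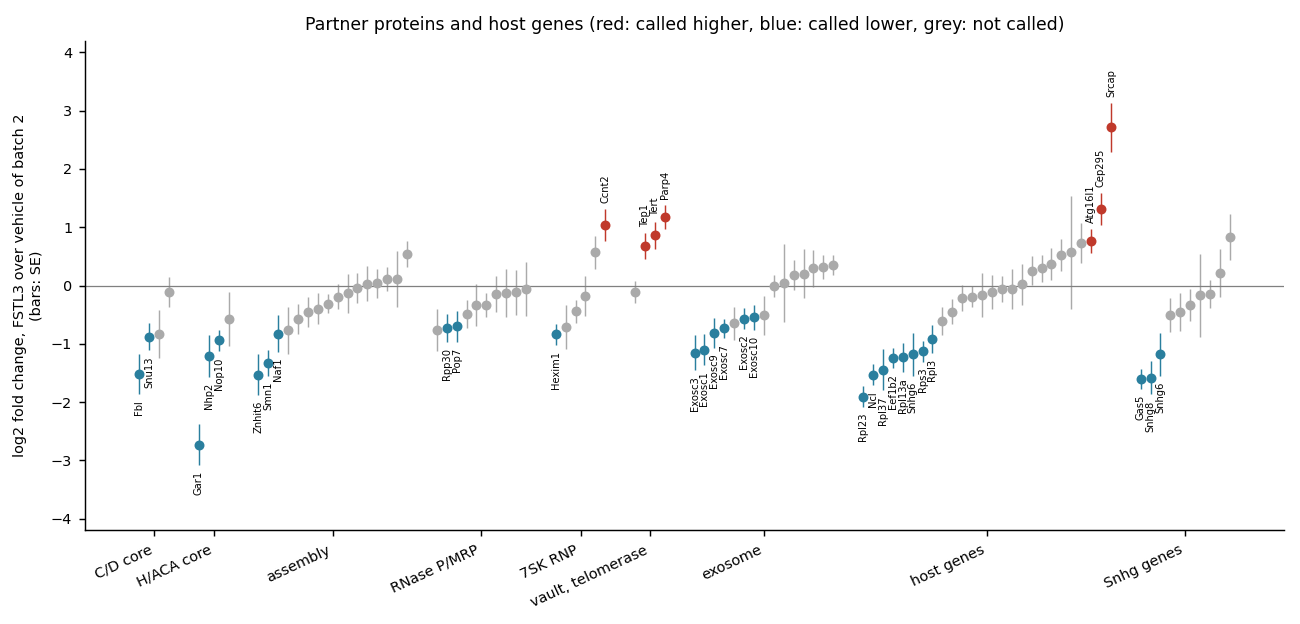
Log2 fold change of each tested partner and host gene, FSTL3 over vehicle of batch 2 (y axis), by list (x axis); bars are the standard error, red is called higher, blue called lower and grey not called. The called genes of the C/D core, H/ACA core and exosome lie below 0, with Gar1 lowest at -2.73, and the called vault and telomerase genes lie above 0.

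Against EPDR1, 24 of 59 partners (4 higher, 20 lower) and 13 of 26 hosts (3 higher, 10 lower) were called after FSTL3, beside 42.0% of all genes (edgeR adjusted p under 0.05). Against FCN2 there were 23 partners (4 higher, 19 lower) and 14 hosts (3 higher, 11 lower), beside 44.3%. In both comparisons the share of partners called was no larger than that of all genes, and the share of hosts was somewhat larger. After EPDR1, 0 partners and 0 hosts were called against the vehicle of batch 2, with 1 partner and 1 host at an unadjusted edgeR p under 0.05. After FCN2, 0 partners and 0 hosts were called by edgeR, beside 0.810% of all genes, with 6 partners and 4 hosts at an unadjusted p under 0.05. Without LBP replicate 2 the counts after FCN2 were 11 partners (2 higher, 9 lower) and 8 hosts (7 higher, 1 lower), beside 18.8% of all genes. After LBP, 10 partners were called (9 higher, 1 lower) and 4 hosts higher, beside 6.77% of all genes called higher. Without LBP replicate 2, 0 partners and 0 hosts were called by edgeR, beside 0.727% of all genes, with 9 partners and 7 hosts at an unadjusted p under 0.05. Between the vehicle groups, 5 partners (4 higher, 1 lower in batch 2) and 6 hosts (5 higher, 1 lower) were called, beside 12.2% of all genes. With LBP replicate 2 left out, 13 partners and 8 hosts were higher in batch 2, beside 14.9% of all genes.

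Beside the FSTL3 differences, the sinusoidal endothelial markers summed to 500 to 607 CPM in FSTL3 libraries, against 191 to 240 in the vehicle of batch 2, with 4 of 8 genes called higher. Kupffer cell markers summed to 174 to 186 CPM, against 190 to 499, with 4 of 10 lower. Hepatocyte markers summed to 95129 to 105410 CPM, against 85402 to 99230, so the groups overlapped. Of the 7 genes, Apob was called higher and Apoa1 lower. As a share of counts before TMM scaling, they took 11.3% to 11.9% in FSTL3 libraries, against 8.61% to 9.91% in vehicle. The marker calls of all these lists stood beside 39.2% of all genes called in either direction (edgeR adjusted p under 0.05). The part of these cell type markers and of the mitochondrial and nuclear RNA named above in the small RNA levels was not tested.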

How the data were processed

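RNA was sequenced from 23 mouse liver libraries in 6 groups. Each library was made from 800 ng of total RNA with a KAPA Hyper-prep kit and read paired-end at 50 bases, per the labels. The deposited table holds whole-number read counts for each gene, as the authors made them. The submitters' processing notes name STAR 2.6.0c and the build GRCm38. Per the file headers, featureCounts 1.6.3 assigned reads to the exons of Ensembl release 95. No option for strand, read pairs or multiple mapping appears in its command line, and its defaults then count each read on its own, on either strand and only at a unique position.

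The members and lists were chosen with earlier results of these data known. Symbols, lengths and sequences came from GENCODE M21, and all 46 members had a transcript of the length given in the count table. With edgeR 4.0.16 (R 4.3.3), filterByExpr kept 11969 genes, which were scaled by TMM and fitted together by robust quasi-likelihood with a mean per group. A gene was called at an adjusted p under 0.05 (Benjamini-Hochberg over all genes fitted). The SE of an edgeR log2 fold change was back-calculated as its absolute value over the square root of the F statistic of its test, and is approximate. CPM uses the TMM-scaled library size, and summed levels per class were given with no test. Ratios of pooled counts have exact 95% intervals that cover counting error only, and a group at 0 was set to a floor of 3 counts. Members were named by class, by total counts, by counts outside FSTL3 and by being called in comparisons without FSTL3. Hosts were named for those members and partners by the 4 smallest p per list.

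The fit was tested on simulated data. Alternatives were DESeq2 1.42.0, limma-voom 3.58.1, other scalings and filters, a fit of the compared pair of groups alone, a replicate block and leaving out libraries. Fits without LBP replicate 2 and without the FSTL3 libraries, and ratios without each library, were added after the data had been seen. Whether the replicate numbers pair samples was not settled. Same-numbered correlations ran from -0.129 to 0.310, and medians of other pairs from -0.0422 to 0.0126. For EPDR1 against the vehicle of batch 2, same-numbered values were -0.0395, 0.144, 0.183 and 0.164. For FSTL3 against FCN2 they ran from -0.129 to 0.0706.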

Additional observations from a re-analysis of the deposited data

Results flagged for a closer look

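Of 60 sets of 4 libraries looked at (a member or class in a group with at least 10 counts), 2 had a library set far from the other 3, and chance flags about 1 in 20. The summed level of box H/ACA snoRNAs was 11.9 CPM in FCN2 replicate 3, against 7.17 to 7.31 CPM in the other 3 FCN2 libraries. The summed level of structural RNAs was 5.21 CPM in vehicle replicate 2 of batch 2, the deepest library, against 7.44 to 7.60 CPM in the other 3. The 3 LBP libraries are too few for this rule, so LBP replicate 2 was not looked at in this way.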

How the results depend on the processing

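Depth limits the members outside FSTL3 libraries, where most were read a few times or not at all. Counts of members called after FSTL3 stayed within 1.5 times of those given under every setting run except no filter, which gave 22 against the vehicle of batch 2, 19 against EPDR1 and 22 against FCN2. After FCN2, DESeq2 called 1 member, 1 partner and 3 hosts, total-count scaling 1 partner, and a fit of the compared groups alone 7 partners and 2 hosts. After FSTL3, the fit of the compared groups alone called 36 partners and 18 hosts. After LBP, limma-voom and the fit of the compared groups alone called 0 members, 0 partners and 0 hosts, and DESeq2 called 2 members. Leaving out the FSTL3 libraries gave 2 members and 6 partners there, total-count scaling 5 partners and 1 host, and no filter 6 partners. The cause of these differences was not tested.

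With a replicate block, the counts were 1 member, 0 partners and 0 hosts after LBP, 1 partner after FCN2, 1 member between the vehicles and 11 members after FSTL3. Whether the replicate numbers pair samples was not settled, so the block is a description. With each library left out in turn, members called ranged from 9 to 12 after FSTL3 against vehicle, 9 to 14 against EPDR1 and 10 to 13 against FCN2. They ranged from 0 to 0 after EPDR1, 0 to 2 after FCN2, 0 to 7 after LBP and 0 to 3 between vehicles. Partners ranged from 16 to 33 after FSTL3, 0 to 11 after FCN2 and 0 to 19 after LBP, and hosts from 10 to 15, 0 to 8 and 0 to 8 in the same comparisons.

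Direction turned for a few log2 fold changes near 0, FSTL3 over the vehicle of batch 2. Under total-count scaling they were 0.047 for Snora20, 0.19 for Snord104, 0.012 for Snx5, 0.032 for Tcp1, 0.11 for Nop56 and 0.11 for Mvp. For Snord104 they were 0.0031 by DESeq2 and 0.0045 with the block. For Tpt1 they were -0.019 by limma-voom, -0.039 with TMM from other genes, -0.11 in the fit of the compared groups alone and -0.02 without LBP replicate 2. With each library left out, the ranges were -0.44 to 0.067 for Snora20, -0.22 to 0.13 for Snord104, -0.13 to 0.20 for Tpt1, -0.29 to 0.055 for Nop56 and -0.23 to 0.015 for Mvp. The summed box C/D level was -0.25 when members needed 10 counts over the 19 other libraries.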

Other observations

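Other RNAs that can end without a poly(A) tail were read in the same libraries. Replication-dependent histone genes, which package newly made DNA, summed to 182 ± 17.6 CPM after FSTL3 and 247 ± 33.2 in the vehicle of batch 2 (SD, n = 4 each). Of 12 tested, 7 entered the fit only through the FSTL3 libraries, and among the other 5, 3 were lower after FSTL3 and 0 higher (edgeR adjusted p under 0.05), beside 39.2% of all genes called. Among the 7, Hist1h4d had 10.8 ± 2.03 CPM after FSTL3 and 0.143 ± 0.172 in vehicle, and Hist1h1e had 32.7 ± 7.18 CPM after FSTL3 and 1.73 ± 0.471 in vehicle. Because of how they entered the fit, these values are a description. Hist1h2bc had 61.5 ± 2.31 CPM after FSTL3 and 161 ± 22.7 in vehicle, and it fell by 1.39 ± 0.35 (edgeR adjusted p = 0.00346), as did Hist1h1c (by 1.14). These genes were chosen after their values were seen.

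The 27 other small structural RNAs outside the rule summed to 6.82 ± 2.84 CPM after FSTL3 and 0.399 ± 0.291 in the vehicle of batch 2 (SD, n = 4 each). Rny3, a Y RNA bound by Ro60, had 3.12 ± 1.68 CPM after FSTL3 and 0.205 ± 0.146 in vehicle, with every FSTL3 library above every vehicle library. It entered the fit only through the FSTL3 libraries, so no test is given for it. Of 5 tested long RNAs that stay in the nucleus, 3 were called higher (Kcnq1ot1, Malat1 and Neat1), beside 39.2% of all genes called in either direction. Meg3 (log2 -1.11) and Mir17hg (0.0093) were not called. Neat1 had the largest rise, with 4018 ± 1609 CPM after FSTL3 and 349 ± 164 in vehicle and a log2 fold change of 3.53 ± 0.57 (edgeR adjusted p = 4.42e-05).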
